A study of Homo sapiens with 6 samples.

Results

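The genes described here are 33 genes of cholesterol and fatty acid synthesis, picked by symbol among the 12486 genes of the deposited expression table. They fall into 19 enzymes of the sterol branch, 8 enzymes of the fatty acid branch and 6 regulators or carriers, and all 33 were found and tested. The RNA came from K562, a human chronic myeloid leukemia line positive for Bcr-Abl. In 3 libraries the cells stably expressed a control shRNA against luciferase (sh-luc), and in 3 libraries they stably expressed an shRNA against a long noncoding RNA that the labels call lncRNA-up91 (sh-up91); it is taken here, from the description of the RNA-seq in the study, to be lncRNA-IUR1, and the group is called sh-IUR1. The libraries of a group are called unnumbered, r1 and r2, after the sample labels. The methods of the study describe 3 independent groups without saying whether these were separate infections, so the p-values below measure the spread between these libraries, which may be partly technical. A single shRNA was used in the RNA-seq, and lncRNA-IUR1 RNA was not analysed here, so these data carry no check of the knockdown.

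Cells make cholesterol from acetyl-CoA through mevalonate, isoprenoid diphosphates, squalene and lanosterol, and they make fatty acids from the same acetyl-CoA pool through malonyl-CoA. Both branches are under the transcription factors SREBF1 and SREBF2 (also known as SREBP proteins), which are held in the endoplasmic reticulum by SCAP and the INSIG proteins when sterols are plentiful and are carried to the Golgi and cut free when sterols are scarce. SREBF2 acts mainly on sterol genes and SREBF1 mainly on fatty acid genes, and INSIG1 is itself a strong target, so its RNA is often read as a gauge of the pathway.

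The promoters of 3 members are shown here because the sterol response is read through such elements and because SREBF2, HMGCS1 and INSIG1 are members whose values differed widely between libraries. Capitals mark matches, on either strand, to the sterol regulatory element core TCACNCCAC, to the NF-Y motif CCAAT, which on the opposite strand is read as ATTGG, or to the E-box CACGTG. The stretches are from RefSeq GRCh38.p14, lie upstream of the listed transcription start and are written in the direction of transcription. SREBF2 is at chr22:41832957-41833018 on the plus strand, HMGCS1 at chr5:43313493-43313582 on the minus strand and INSIG1 at chr7:155297694-155297843 on the plus strand.
SREBF2: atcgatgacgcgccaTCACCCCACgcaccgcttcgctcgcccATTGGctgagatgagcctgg
HMGCS1: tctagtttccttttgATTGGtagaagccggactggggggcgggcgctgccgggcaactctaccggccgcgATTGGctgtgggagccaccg
INSIG1: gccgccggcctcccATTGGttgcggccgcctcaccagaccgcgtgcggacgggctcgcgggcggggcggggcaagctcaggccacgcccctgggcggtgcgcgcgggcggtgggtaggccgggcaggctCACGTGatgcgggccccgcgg

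In the SREBF2 stretch the sterol element starts 133 bases before the transcription start and the NF-Y match 106 bases before it. HMGCS1 holds 2 NF-Y matches, and INSIG1 holds 1 NF-Y match and 1 E-box. Of the members, 29 had an entry in the RefSeq promoter table (ACAT2, FASN, FDFT1 and SQLE had none), with 40 listed starts among them. In the 250 bases before these starts CCAAT was found in 60% of member promoters and in 32% of all 35116 promoters of the same length, and the Sp1 motif GGGCGG in 87.5% and 42.6%. CCAAT was in 71.4% of the 21 sterol branch promoters, 42.9% of the 7 regulator promoters and 50% of the 12 fatty acid branch promoters. The strict sterol element was in 1 of 40 member promoters, that of SREBF2, and in 0.883% of all promoters. The E-box was in 4 of 40 and in 6.34% of all promoters, and the members holding it were INSIG1, SCAP and SC5D. These matches are descriptions of letters, and the windows are short.

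Both branches were expressed in K562, each with members in the top 10% and members below the median of all listed genes. Members not above the median were HMGCS1, MVK, MSMO1, HSD17B7, SC5D, INSIG1, INSIG2, STARD4, FADS2 and ELOVL6. Levels are given in FPKM, fragments scaled to transcript length and library size, so they can be compared between genes. The mean over the 6 libraries lay above the median of all listed genes (10.2 FPKM) for 23 of 33 members, and 6 members were in the top 10% of the table, namely FDPS, FDFT1, FASN, SCD, ACLY and FADS1. The median of the mean levels was 29.8 FPKM in the sterol branch, 49.8 FPKM in the fatty acid branch and 21.6 FPKM among the regulators. FDPS, which makes farnesyl diphosphate for sterols and prenylation, had the highest level of all (mean 125.6 FPKM), followed by FASN, the fatty acid synthase (107.3 FPKM). At the other end were SC5D, a desaturase of the late sterol pathway (2.3 FPKM), and INSIG2 (2.87 FPKM).

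No member of either branch passed the test for a change between sh-IUR1 and sh-luc. The comparison of sh-IUR1 with sh-luc used limma on log2(FPKM + 1) with Benjamini-Hochberg adjustment over 12276 genes, and its log2 fold changes slightly understate those of low genes. At an adjusted p under 0.05 it called 0 of 33 members and 0 of 12276 genes (0%), and adjusted p-values of the members lay between 0.93 and 0.995. At an unadjusted p under 0.05 the count was 1 member, HSD17B7, on the side of higher values in sh-IUR1, where 1.65% of all genes were found, and 0 members on the lower side, where 0.994% were found. The groups did not overlap for 1 member with all sh-IUR1 libraries above all sh-luc libraries (HSD17B7, against 4.04% of all genes) and for 1 member in the other direction (FDFT1, against 3.03%). With 33 members, 1 gene is too few to set against these shares. In bulk RNA, fewer cells of a kind and less RNA per cell cannot be told apart.

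The fitted differences were also small. Fold changes on the log2 scale ran from -0.19 (INSIG1) to 0.19 (HSD17B7), and every 95% interval of the 33 lay within -0.51 and 0.40. The median was -0.016 over the sterol branch with 7 of 19 members above 0, -0.011 over the fatty acid branch with 4 of 8 above 0, and 0.054 over the regulators with 4 of 6 above 0. Over all genes tested the median was 0.019 and 58% were above 0. The mean log2(FPKM + 1) of the sterol branch was 4.54, 4.52 and 4.51 in sh-luc (in the order unnumbered, r1, r2, used throughout) and 4.51, 4.49 and 4.54 in sh-IUR1. That of the fatty acid branch was 5.12, 5.21 and 5.20 in sh-luc, against 5.16, 5.14 and 5.25 in sh-IUR1. The groups overlapped in both branches, and in the fatty acid branch the lowest value was a control library and the highest an sh-IUR1 library.

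**Figure D1:**
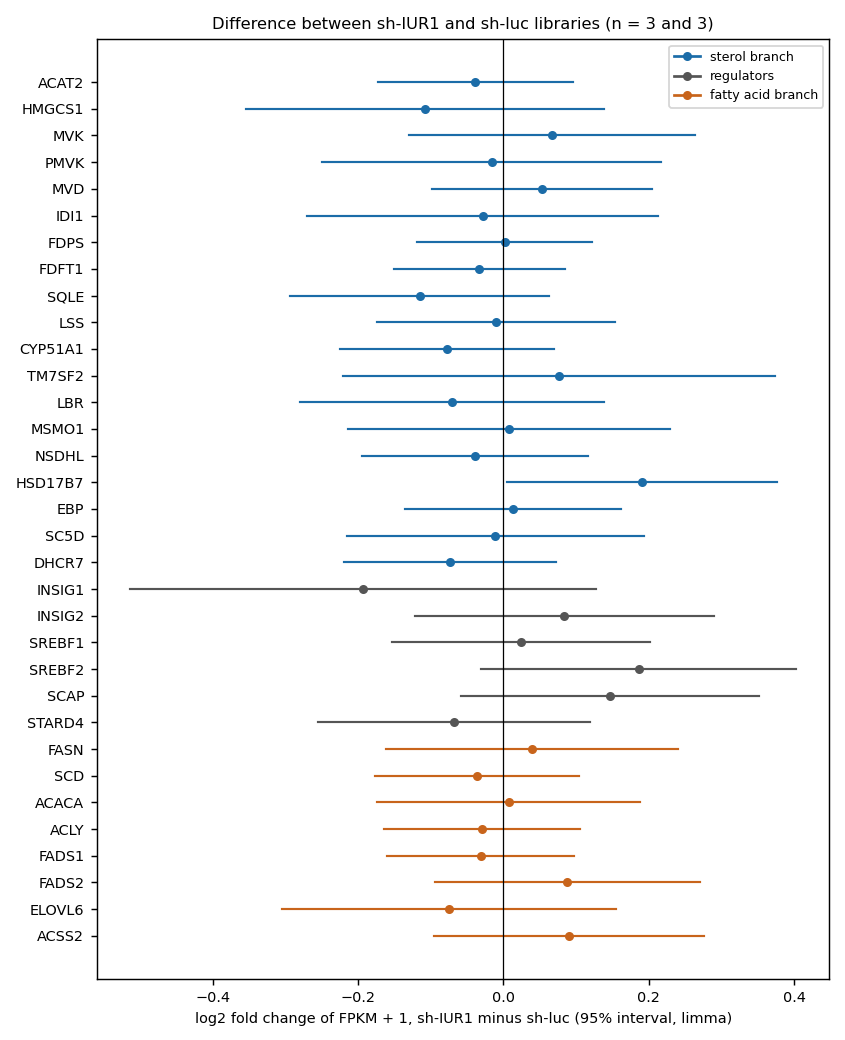
log2 fold change of FPKM + 1 (sh-IUR1 minus sh-luc, n = 3 and 3) for each gene, with the 95% interval from limma, coloured by branch. The intervals of all genes but HSD17B7 include 0, and that of HSD17B7 starts at 0.0045.

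In the early sterol pathway, FDPS showed how little the 2 groups differed. It was at 126.73, 122.38 and 127.51 FPKM in sh-luc and at 124.23, 130.08 and 122.82 FPKM in sh-IUR1, a log2 fold change of 0.0017 with an interval of -0.12 to 0.12 (adjusted p = 0.995). The groups overlapped throughout. The other enzymes up to the isoprenoids, namely ACAT2 (acetoacetyl-CoA thiolase), HMGCS1 (HMG-CoA synthase), MVK, PMVK and MVD (which convert mevalonate to isopentenyl diphosphate) and IDI1 (its isomerase), had log2 fold changes between -0.11 (HMGCS1) and 0.067 (MVK), and none passed the test.

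FDFT1, the squalene synthase that commits farnesyl diphosphate to sterols, was the steadiest of the 33 genes, with an SD over the 6 libraries of 0.024 on the log2 scale. It was at 75.92, 75.52 and 75.02 FPKM in sh-luc and at 74.22, 72.39 and 74.68 FPKM in sh-IUR1. All sh-IUR1 libraries were below all control libraries, but by little: the log2 fold change was -0.033 (SE 0.0525, adjusted p = 0.944, limma), and a two-sided exact permutation test gave p = 0.1, the smallest value that 3 against 3 libraries allow. SQLE, the squalene epoxidase that is often rate-limiting, was at 23.04, 20.53 and 21.03 FPKM in sh-luc and at 19.80, 18.20 and 21.48 FPKM in sh-IUR1. Here the groups overlapped through r2 of sh-IUR1, and the log2 fold change was -0.12 (interval -0.29 to 0.063, adjusted p = 0.93). LSS, the lanosterol synthase that closes the sterol ring system, had a log2 fold change of -0.0099.

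Beyond lanosterol, CYP51A1, the lanosterol demethylase, was at 32.89, 33.66 and 31.35 FPKM in sh-luc and at 31.02, 29.16 and 32.49 FPKM in sh-IUR1. The lowest libraries were sh-IUR1 r1 and the unnumbered sh-IUR1 library, while sh-IUR1 r2 was inside the control range (log2 fold change -0.078, adjusted p = 0.93). EBP, the sterol isomerase, followed FDPS and FDFT1 in abundance among the sterol genes, at 69.44, 61.28 and 66.82 FPKM in sh-luc, against 68.47, 62.95 and 67.83 FPKM in sh-IUR1. In both groups r1 was the lowest library of EBP, and the groups did not separate (log2 fold change 0.013). MSMO1 and NSDHL, which with HSD17B7 remove methyl groups from the sterol ring, and SC5D and DHCR7, the last of which completes cholesterol in one route, had log2 fold changes between -0.074 (DHCR7) and 0.0082 (MSMO1).

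HSD17B7 was the member that differed most between the groups relative to its spread. It was at 6.87, 7.58 and 6.29 FPKM in sh-luc and at 8.03, 8.04 and 7.96 FPKM in sh-IUR1. The sh-IUR1 libraries were nearly equal (mean 8.01, SD 0.0436, n = 3), and all lay above the controls (mean 6.91, SD 0.646, n = 3). The log2 fold change was 0.19 (SE 0.083, interval 0.0045 to 0.38), with an unadjusted limma p of 0.0457, an adjusted p of 0.93 and an exact permutation p of 0.1. It was 0.19 once transcript GC and length had been adjusted for in every library, and 0.17 and 0.15 with median-ratio scaling and quantile normalization, where the unadjusted p was 0.057 and 0.0809. HSD17B7 lies on chromosome 1 from 162790702 to 162812823 (RefSeq GRCh38.p14, plus strand). Its transcript shares 1033 bases at 98.354% identity with the pseudogene HSD17B7P2, so its level is uncertain where reads could be assigned to either copy. Neither of the partner enzymes had a like value: MSMO1 was at 3.87 to 4.86 FPKM in sh-luc, against 3.96 to 4.79 FPKM in sh-IUR1, and NSDHL at 27.71 to 31.67 and 28.60 to 29.74 FPKM.

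The sterol reductases LBR and TM7SF2, which can carry out the same step, were examined after their values had been seen. LBR was at 64.55, 52.85 and 53.02 FPKM in sh-luc and at 54.19, 48.86 and 58.87 FPKM in sh-IUR1. TM7SF2 was at 11.01, 12.82 and 13.68 FPKM in sh-luc and at 13.47, 16.02 and 10.60 FPKM in sh-IUR1. LBR was highest in the unnumbered control and lowest in sh-IUR1 r1, and TM7SF2 was highest in sh-IUR1 r1, with overlapping groups for both (log2 fold change -0.070 for LBR and 0.077 for TM7SF2). The ratio of LBR to TM7SF2 was 5.86, 4.12 and 3.88 in sh-luc, against 4.02, 3.05 and 5.55 in sh-IUR1, so it spanned almost the same range in both groups. LBR has a transcript of 38.02% GC and TM7SF2 one of 62.36%.

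Among the regulators, INSIG1, the retention protein whose RNA follows the sterol state of the cell, had the widest spread of all members (SD over the 6 libraries 0.241 on the log2 scale). It was at 12.71, 9.88 and 10.10 FPKM in sh-luc and at 9.12, 7.58 and 11.77 FPKM in sh-IUR1. The highest library was the unnumbered control, but sh-IUR1 r2 came next, so the groups overlapped. The log2 fold change was -0.19 (SE 0.14, interval -0.51 to 0.13, adjusted p = 0.93, limma) and the exact permutation p was 0.4. Its value rested on single libraries: it was -0.058 without sh-IUR1 r1 and -0.34 without sh-IUR1 r2. INSIG2, its low-level relative, had a log2 fold change of 0.084, and STARD4, a sterol carrier, one of -0.068.

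SREBF2 was at 26.12, 33.50 and 33.27 FPKM in sh-luc and at 34.52, 37.52 and 33.50 FPKM in sh-IUR1. The unnumbered control stood below the 5 other libraries, and the lowest sh-IUR1 value equalled the highest control value at the 2 decimals deposited. The log2 fold change was 0.19 (SE 0.097, interval -0.031 to 0.40, adjusted p = 0.93) and the exact permutation p was 0.2; without the unnumbered control the log2 fold change was 0.072. SCAP, the escort of both transcription factors, was at 30.00, 35.87 and 37.47 FPKM in sh-luc and at 37.05, 41.58 and 35.84 FPKM in sh-IUR1. The same control library was the lowest of SCAP and sh-IUR1 r1 the highest, and the groups overlapped (log2 fold change 0.15, adjusted p = 0.93, exact permutation p = 0.5, and 0.053 on the log2 scale without the unnumbered control). SREBF2 spans chromosome 22 from 41833105 to 41907305 and overlaps the span of the antisense gene SREBF2-AS1. Strandedness of the libraries is not given in the sources used here, so reads from any shared stretch might not be told apart. Overlap of exons was not examined.

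SREBF1, the factor of the fatty acid branch, was at 37.26, 39.83 and 41.01 FPKM in sh-luc and at 38.51, 37.14 and 44.80 FPKM in sh-IUR1. Its r2 libraries were the highest of each group and the groups overlapped (log2 fold change 0.024, adjusted p = 0.967, limma). SREBF1 RNA was as abundant as SREBF2 RNA or slightly more so: the ratio of the 2 FPKM values was 1.43, 1.19 and 1.23 in sh-luc, against 1.12, 0.99 and 1.34 in sh-IUR1. The ratio of INSIG1 to INSIG2 was 4.64, 3.32 and 3.96 in sh-luc, against 2.79, 2.89 and 3.83 in sh-IUR1, with overlap through r1 of sh-luc and r2 of sh-IUR1.

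In the fatty acid branch, FASN was at 94.42, 105.69 and 117.74 FPKM in sh-luc and at 102.49, 103.71 and 119.98 FPKM in sh-IUR1. The r2 library was the highest in each group and the spread within a group was larger than the difference between them (log2 fold change 0.039, adjusted p = 0.955). SCD, the stearoyl-CoA desaturase, was at 84.19, 84.98 and 87.01 FPKM in sh-luc and at 79.95, 80.25 and 89.84 FPKM in sh-IUR1. Again r2 was highest in both groups, and the sh-IUR1 libraries lay on both sides of the controls (log2 fold change -0.037, adjusted p = 0.948). ACACA, which makes malonyl-CoA, and ACLY, which makes cytosolic acetyl-CoA from citrate, had log2 fold changes of 0.0071 and -0.030.

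FADS1, a desaturase of polyunsaturated fatty acids, was at 92.55, 97.89 and 90.09 FPKM in sh-luc and at 90.38, 89.38 and 94.58 FPKM in sh-IUR1, with overlapping groups (log2 fold change -0.031, adjusted p = 0.95). FADS2, which acts one step earlier and is its neighbour on chromosome 11, was far lower, at 7.46, 8.89 and 8.26 FPKM in sh-luc and at 8.75, 8.91 and 8.63 FPKM in sh-IUR1. The 3 sh-IUR1 values of FADS2 were inside or just above the control range (log2 fold change 0.088, adjusted p = 0.93). The ratio of FADS1 to FADS2 was 12.4, 11 and 10.9 in sh-luc, against 10.3, 10 and 11 in sh-IUR1. The 2 genes overlap in the RefSeq annotation, where reads cannot be assigned to one of them with certainty.

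ELOVL6, which elongates palmitate, was at 11.44, 10.09 and 9.73 FPKM in sh-luc and at 9.97, 8.52 and 11.14 FPKM in sh-IUR1. Its order of libraries resembled that of INSIG1, with the unnumbered control at the top and sh-IUR1 r1 at the bottom (log2 fold change -0.074, adjusted p = 0.94). ACSS2, which makes acetyl-CoA from acetate, was at 13.62, 15.78 and 15.08 FPKM in sh-luc and at 16.21, 16.83 and 14.51 FPKM in sh-IUR1. It had the opposite order, lowest in the unnumbered control and highest in sh-IUR1 r1 (log2 fold change 0.090, adjusted p = 0.93).

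These opposite orders were noticed in the data, and other members had them too. Highest in the unnumbered sh-luc library and lowest in sh-IUR1 r1 were 6 members (HMGCS1, FDFT1, SQLE, LBR, INSIG1 and ELOVL6), 18.2% of the 33, against 12.9% of all genes tested. Lowest in the unnumbered sh-luc library and highest in sh-IUR1 r1 were also 6 members (MVK, MVD, SREBF2, SCAP, FADS2 and ACSS2), 18.2% against 18.3% of all genes. Either set held members of both branches and of the regulators. The sterol branch had 8 of its 19 members at their highest in the unnumbered sh-luc library (42.1%, against 24.1% of all genes), and the fatty acid branch had 1 of 8. At their lowest in that library were 4 of 19 sterol members (21.1%) and 4 of 8 fatty acid members (50%), against 38.4% of all genes.

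**Figure D2:**
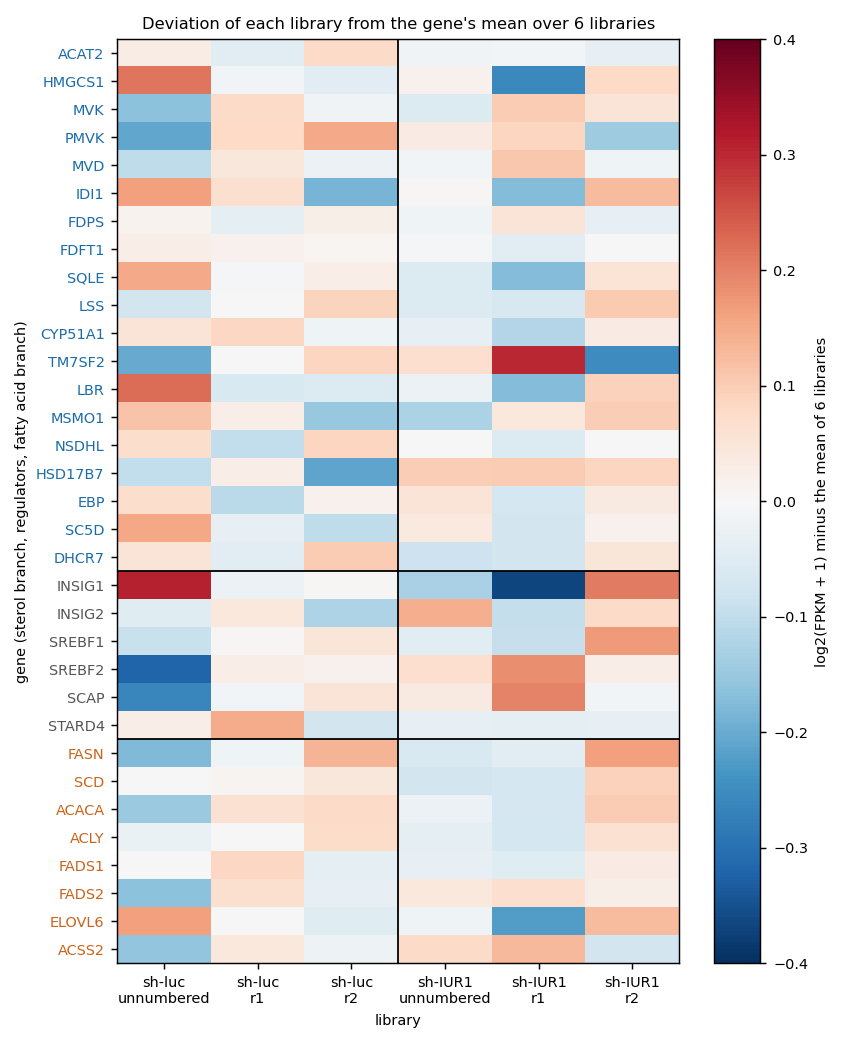
Difference of log2(FPKM + 1) of each library (columns, sh-luc left and sh-IUR1 right of the line) from the gene's mean over the 6 libraries, for the 33 genes (rows, by branch), in log2 units from blue (below) to red (above). The unnumbered sh-luc column runs from -0.32 (SREBF2) to 0.31 (INSIG1), and the lowest value of the picture is that of INSIG1 in sh-IUR1 r1 (-0.37).

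The 2 sets differed in base composition. The transcripts of the first 6 had a GC content of 38% to 46.5% (median 43.1%) and those of the other 6 one of 53.8% to 65.5% (median 59.5%), with no overlap. Over the 33 members the correlation across genes between GC content and the deviation of a library from the gene's mean was -0.71 in the unnumbered sh-luc library, 0.64 in sh-luc r2 and 0.57 in sh-IUR1 r1, and between -0.25 and 0.03 in the 3 other libraries. Over the 11923 genes tested that have a GC content it was -0.29, 0.38 and 0.35 in those 3 libraries. Genes share their libraries and are not independent replicates, so these correlations are descriptions. Once every library had been adjusted by loess for transcript GC and length, the values over the members were -0.38 in the unnumbered sh-luc library, 0.25 in sh-luc r2 and 0.24 in sh-IUR1 r1, while that of the unnumbered sh-IUR1 library went from 0.03 to 0.35. INSIG1 kept its deviations of 0.32 in the unnumbered sh-luc library and -0.36 in sh-IUR1 r1 after the correction (0.31 and -0.37 before), whereas that of SREBF2 in the unnumbered sh-luc library went from -0.32 to -0.19 and that of FASN from -0.18 to -0.012. The part of GC content in each member's order was not tested beyond this.

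**Figure D3:**
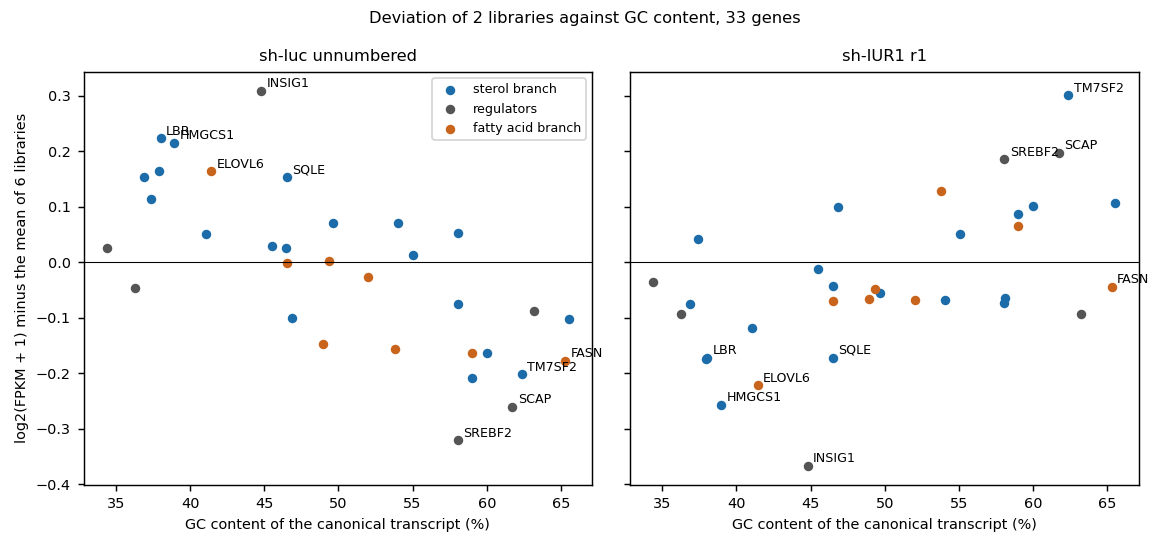
Deviation of log2(FPKM + 1) from the gene's mean over 6 libraries (vertical axis) against the GC content of the canonical transcript in percent (horizontal axis), for the 33 genes in the unnumbered sh-luc library (left) and sh-IUR1 r1 (right). The points slope down on the left (Pearson r = -0.71) and up on the right (r = 0.57).

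Another order did not depend on group. In 7 members r2 was the highest library of sh-luc and also of sh-IUR1, namely LSS, DHCR7, SREBF1, FASN, SCD, ACACA and ACLY. This was 21.2% of the members and 8.36% of all genes, and it held 4 of the 8 fatty acid enzymes; ELOVL6, FADS1, FADS2 and ACSS2 did not have it. Over the whole fatty acid branch the median deviation on the log2 scale was 0.076 in sh-IUR1 r2 and 0.013 in sh-luc r2, where sh-luc r1 was higher (0.027). Over the sterol branch it was 0.037 and 0.008, and over all genes 0.002 and -0.006. Other libraries had branch medians at least as far from 0. That of the sterol branch was 0.050 in the unnumbered sh-luc library and -0.055 in sh-IUR1 r1. That of the fatty acid branch was -0.087 in the unnumbered sh-luc library. The transcripts of these 7 had a GC content of 46.5% to 65.3%.

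Facts of the whole table that touch these values are few. The unnumbered sh-luc library stood apart on the first principal component (59.3% of variance), at -19.8 against -3.8 to 13.0 for the 5 others, with sh-IUR1 r1 at the opposite end. A list of 23 integrated stress genes was included because earlier results of these data had shown that it sets a library apart. Its values are therefore a description and no independent support. The list averaged 5.05 on the log2(FPKM + 1) scale in the unnumbered sh-luc library. It averaged 6.04 and 5.86 in the other sh-luc libraries and 5.75 to 6.22 in sh-IUR1. SREBF2 and SCAP were also lowest in the unnumbered sh-luc library, as were 10 of the 33 members in all (30.3%) and 38.4% of all genes. The part of the stress list in these values was not tested. All 12 K562 markers were tested, with HBG2 at a mean of 2914.8 FPKM. They also moved between libraries: 8 of 12 were highest in the unnumbered sh-luc library (66.7%, against 24.1% of all genes), 6 of 12 were lowest in sh-IUR1 r1 (50%, against 22.3%), and 11 of 12 had a log2 fold change below 0, with a median of -0.081. That same highest and lowest library was found in 6 members (HMGCS1, FDFT1, SQLE, LBR, INSIG1 and ELOVL6), 18.2% against 12.9% of all genes. The opposite order was found in 6 other members, 18.2% against 18.3% of all genes. The part of the markers in the values of these members was not tested. Of 15 markers of other cell types, 8 were tested, and their mean log2(FPKM + 1) was 3.22 to 3.33 in every library. KRT8, KRT18 and EPCAM were the only ones above 5 FPKM, and were far above it, at means of 360.8, 293.1 and 41.1 FPKM.

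Genes around the 33 members were read from the same fit. Of 56 other genes of sterol and fatty acid metabolism, 51 were tested, 0 passed an adjusted p under 0.05 and 39 had a log2 fold change above 0. That was 76.5% of them, against 58% of all genes and 45.5% of the 33 members, and their median of 0.019 was close to that over all genes. DGAT2, which makes triglycerides, was the one with an unadjusted p under 0.05, where 1.65% of all genes were found on the higher side and 0.994% on the lower. It was at 4.73, 5.21 and 4.88 FPKM in sh-luc and at 6.12, 5.77 and 5.57 FPKM in sh-IUR1. All sh-IUR1 libraries lay above the controls (log2 fold change 0.20, interval 0.022 to 0.38, unadjusted p = 0.0314, adjusted p = 0.93, limma). The groups also failed to overlap for ACSL1 and ACSL3, with sh-IUR1 above, and for ELOVL5, with sh-IUR1 below; with DGAT2 these were 3 of 51 genes on the higher side and 1 of 51 on the lower, against 4.04% and 3.03% of all genes. By subgroup, 6 of 9 genes of SREBP processing and turnover, 9 of 10 of sterol transport and storage, 5 of 8 of the isoprenoid side branches and 19 of 24 fatty acid and glycerolipid genes were above 0, and 0 of them passed the adjusted test.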

How the data were processed

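RNA-seq of 6 K562 libraries was used, 3 sh-luc and 3 sh-IUR1, grouped by the sample labels. Per the methods and the submitters' processing notes, the authors trimmed and masked the reads, mapped them to hg38 and computed RPKM with SAMtools 0.1.19. The aligner, the annotation and the strandedness are not given in the sources used here. The deposited values are FPKM with 2 decimals, and are taken here as the header names them. The authors also deposited a score (the z-score of each gene over the libraries, recomputed here within 2.2e-14), a cluster number and a membership fraction, none of which was tested. The smallest SD of FPKM in the table is 0.0501, so nearly constant genes were not analysed here.

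Entrez identifiers were matched to RefSeq symbols (12363 of 12486). GC content and length came from canonical GENCODE transcripts (97% of genes), and near-identical copies were searched with BLAST 2.17.0 (at least 95% identity over 300 bases). It found a copy for 7 members (ACAT2, CYP51A1, EBP, HMGCS1, HSD17B7, LSS and SCD), and 18 members overlap another RefSeq gene. The longest matches were those of CYP51A1 (2828 bases at 100% identity) and HMGCS1 (2125 bases at 100%). The levels of all 7 are uncertain where reads could be assigned to either copy. limma 3.58.1 in R 4.3.3 (lmFit, eBayes with trend) was fitted to log2(FPKM + 1) for the 12276 genes averaging 0.1 FPKM or more, with group as the only term and Benjamini-Hochberg adjustment. FPKM sums over the listed genes were 579820 to 606240 per library; these are not depths, and the number of fragments behind a value is unknown. Low values gave whole fragments (within 0.1) in 30.4% of 224 values at the best of a range of assumed depths. The share by chance is 20% at 1 fixed depth and was not computed for the best of many. The 2 shares are therefore not directly comparable, and no count test was made. This fit was also run on simulated data with noise drawn independently for each gene and library. That simulation holds no effect shared by the genes of a library, so it does not cover the library differences described above. With 3 libraries per group an exact permutation test cannot go below p = 0.1.

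The members and gene lists were chosen with earlier results of these data known. Values in every library are given for members without overlap between groups, the 3 of each class with the smallest p, the 3 with the highest mean in each branch, and INSIG1, SREBF1, SREBF2 and SCAP; LBR and TM7SF2 were added after their values were seen. Of the other pathway genes, those without overlap and with an unadjusted p under 0.05 are named. Summaries were made in Python 3.11.15 (pandas 2.3.3, numpy 2.4.6, scipy 1.17.1) and drawn with matplotlib 3.10.9. Motifs were searched on both strands in the 250 bases before each listed start. Alternatives were quantile normalization, median-ratio scaling, a replicate block, a pseudocount of 0.1, a filter at 1 FPKM or none, an untrended eBayes, and each library left out. A loess correction for GC content and length (span 0.5) and a fit without the unnumbered sh-luc and the r1 sh-IUR1 library were added after the data were seen.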

Additional observations from a re-analysis of the deposited data

How the results depend on the processing

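Under all 15 alternatives, 0 genes and 0 members passed the adjusted threshold. The number of genes at an unadjusted p under 0.05 ranged from 158 (without the unnumbered sh-IUR1 library) to 856 (without sh-luc r1), against 325. Of 510 gene values under the alternatives (the 33 members and DGAT2), 456 kept the sign of the log2 fold change and 54 reversed, all of them in 21 genes. With median-ratio scaling FDPS was -0.0189, MSMO1 -0.0087, EBP -0.0073 and ACACA -0.0128. Quantile normalization gave -0.0421 for MSMO1 and -0.0014 for ACACA. The correction for GC content and length gave -0.0131 for FDPS, -0.0286 for SREBF1, -0.0263 for FASN and -0.0367 for ACACA. Without 1 library of each group (the unnumbered sh-luc and the r1 sh-IUR1 library) the values were 0.0738 for HMGCS1, -0.0318 for MVK, -0.0242 for MVD, 0.1258 for IDI1, -0.0161 for FDPS, -0.1367 for TM7SF2, 0.0919 for LBR, 0.0049 for NSDHL, 0.0979 for SC5D, 0.0489 for INSIG1, -0.0085 for SCAP, -0.0085 for FASN, -0.0304 for ACACA, 0.0812 for ELOVL6 and -0.0078 for ACSS2; 8 members then had groups without overlap, where 32.1% of all genes did. For HMGCS1, LBR, INSIG1 and ELOVL6 this fit leaves out the highest control and the lowest sh-IUR1 library, so their values could only rise. For MVK, MVD, SCAP and ACSS2 it leaves out the lowest control and the highest sh-IUR1 library, so theirs could only fall. The cause of the reversals was not tested further. With 1 library left out in turn, the log2 fold change ranged from -0.0649 to 0.0465 for ACACA, -0.0369 to 0.0519 for EBP, -0.1573 to 0.0180 for ELOVL6, -0.0576 to 0.0017 for FADS1, -0.0404 to 0.1173 for FASN, -0.0229 to 0.0182 for FDPS, -0.1285 to 0.0511 for IDI1, -0.1339 to 0.0235 for LBR, -0.0649 to 0.0325 for LSS, -0.0659 to 0.0733 for MSMO1, -0.1240 to 0.0556 for PMVK, -0.0657 to 0.0631 for SC5D, -0.0553 to 0.0767 for SREBF1 and -0.0547 to 0.2219 for TM7SF2. HSD17B7 ranged from 0.1328 (without sh-luc r2) to 0.2504 (without sh-luc r1). The smallest number of members without overlap was 2, without the unnumbered sh-luc library (12.6% of all genes) or the unnumbered sh-IUR1 library (11.9%). The largest was 10, without sh-IUR1 r2, where 25.2% of all genes were without overlap. Deviations of same-numbered libraries correlated at 0.04 (unnumbered), 0.39 (r1) and -0.34 (r2), so the numbers were not taken to pair the libraries; with the replicate block 0 genes were called, 533 had an unadjusted p under 0.05, and SREBF2 was the member among them (0.1860, unadjusted limma p = 0.0453, adjusted p = 0.947). Depth is unknown, so the precision of low genes such as SC5D and INSIG2 could not be judged.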
